A study of Arabidopsis thaliana with 4 samples.

Results

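The 26S proteasome genes described here are 9 Arabidopsis thaliana loci chosen by locus number, out of 13604 tested probe sets. They are AT1G79210, AT1G45000, AT2G32730, AT1G04810, AT1G75990, AT4G24820, AT5G45620, AT5G23540 and RPN12a (AT1G64520), each read from its brightest probe set with 1 assigned gene. A list of 56 loci for subunits of the particle was drawn up, and these 9 were the ones with such a probe set. They cover 1 of 13 listed genes of the alpha ring of the core, 0 of 11 of the beta ring, 1 of 11 for ATPases, 2 of 6 for other proteins of the base and 5 of 15 of the lid. The peptidase subunits, which sit in the beta ring, were therefore not analysed here. The platform table used for gene assignment named genes for 14016 of 22810 probe sets. A gene without an assigned probe set, here and below, may still be measured by an unnamed one. All 9 passed the filter on dim probe sets and had 1 single-gene probe set each.

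The 26S proteasome is the cell's main machine for breaking down proteins that carry a chain of ubiquitin. Its barrel-shaped core cuts peptide bonds inside a closed chamber, and a regulatory particle at the end of the barrel binds the tagged protein, removes the ubiquitin, unfolds the chain and feeds it in. In plants it removes hormone and light signalling repressors and damaged proteins, and it also degrades chloroplast precursor proteins that fail to enter the plastid. The gene table used for names gives a subunit name only to RPN12a. Subunit roles of the other 8 loci are given below as general background knowledge and not as annotation of these data. No sequences of these genes were used here.

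RNA came from whole plants grown on agar plates and was hybridised to 4 single-colour arrays. The labels put 2 arrays in the ppi2 mutant group, at 20 days, and 2 in the wild type group, at 10 days, so genotype and age changed together and cannot be told apart. The ppi2 mutant lacks TOC159, a receptor for the import of photosynthetic proteins into chloroplasts, and is pale and slow-growing. The sample titles name no promoter, transgene or added treatment, and whether plants were pooled is not given in the sources used here. The labels call the samples of a group biological replicates without saying that they were grown separately, so the p-values below reflect the array-to-array spread, part of which may be technical. In whole-plant RNA, fewer cells of a type and less RNA per cell cannot be told apart.

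The arrays did not lie closest to their labelled partners. The median absolute log2 difference over all tested probe sets was 0.16 between ppi2 replicate 1 and wild type replicate 2 and 0.26 between ppi2 replicate 2 and wild type replicate 1. It was 0.44 between both ppi2 arrays and 0.49 between both wild type arrays. Leaf markers followed the same crossed order. The summed signal of the 5 leaf markers with a probe set, out of 7 listed (RCA, PSAN, SBPASE, PORB and LHCB4.2), was 22522 and 92941 on ppi2 replicates 1 and 2, and 99578 and 21794 on wild type replicates 1 and 2. None of these leaf markers was at 0 on any array. Of 8 root markers, 2 had a probe set (EXPA7 and EXPA18), with summed signals of 194 and 234 in ppi2 and 250 and 184 in wild type. These 2 markers differed in order, since EXPA7 was lowest on wild type replicate 1 (71.8) and EXPA18 highest there (178), and EXPA7 did not pass the filter on dim probe sets. Markers of flowers, seed storage and epidermis had no assigned probe set. The leaf markers are genes of photosynthesis and chlorophyll synthesis, so leaf amount and expression of these genes cannot be told apart. The part that leaf content played in the values below was not tested. Single markers crossed in the same way but to unlike degrees. LHCB4.2 differed most, at 841 and 29459 in ppi2 and 30097 and 714 in wild type. RCA differed least, at 12917.6 and 20244.3 in ppi2 and 16454.6 and 13708.5 in wild type. No probe set was assigned to TOC159, so the mutated gene could not check the labels, and whether the labels of the 2 arrays of 1 replicate number were exchanged was not tested. Were they exchanged, the labelled differences and the counts of calls below would not compare ppi2 with wild type plants. Arrays are therefore named by their labels throughout, and each direction holds for the labels as given.

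Signals of the 9 proteasome genes varied little over the 4 arrays, and no difference between ppi2 and wild type passed the test for any of them. Every member's highest signal was under 2-fold above its lowest, with ratios from 1.14 for AT1G45000 to 1.90 for AT1G04810 and a median of 1.48. Over all tested probe sets the median ratio was 1.67, and 67.8% were under 2-fold. This comparison takes no account of signal level. The median signal of the tested probe sets on an array lay between 473 and 497, and every member but AT1G75990 was above that on each array. Whether the members were steadier than probe sets of like signal was not tested. What variation there was ran within the labelled groups: all 9 genes were higher on ppi2 replicate 1 than on ppi2 replicate 2, as were 52.8% of all tested probe sets, and 7 of 9 were lower on wild type replicate 1 than on wild type replicate 2, as were 51.1% of all.

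**Figure D1:**
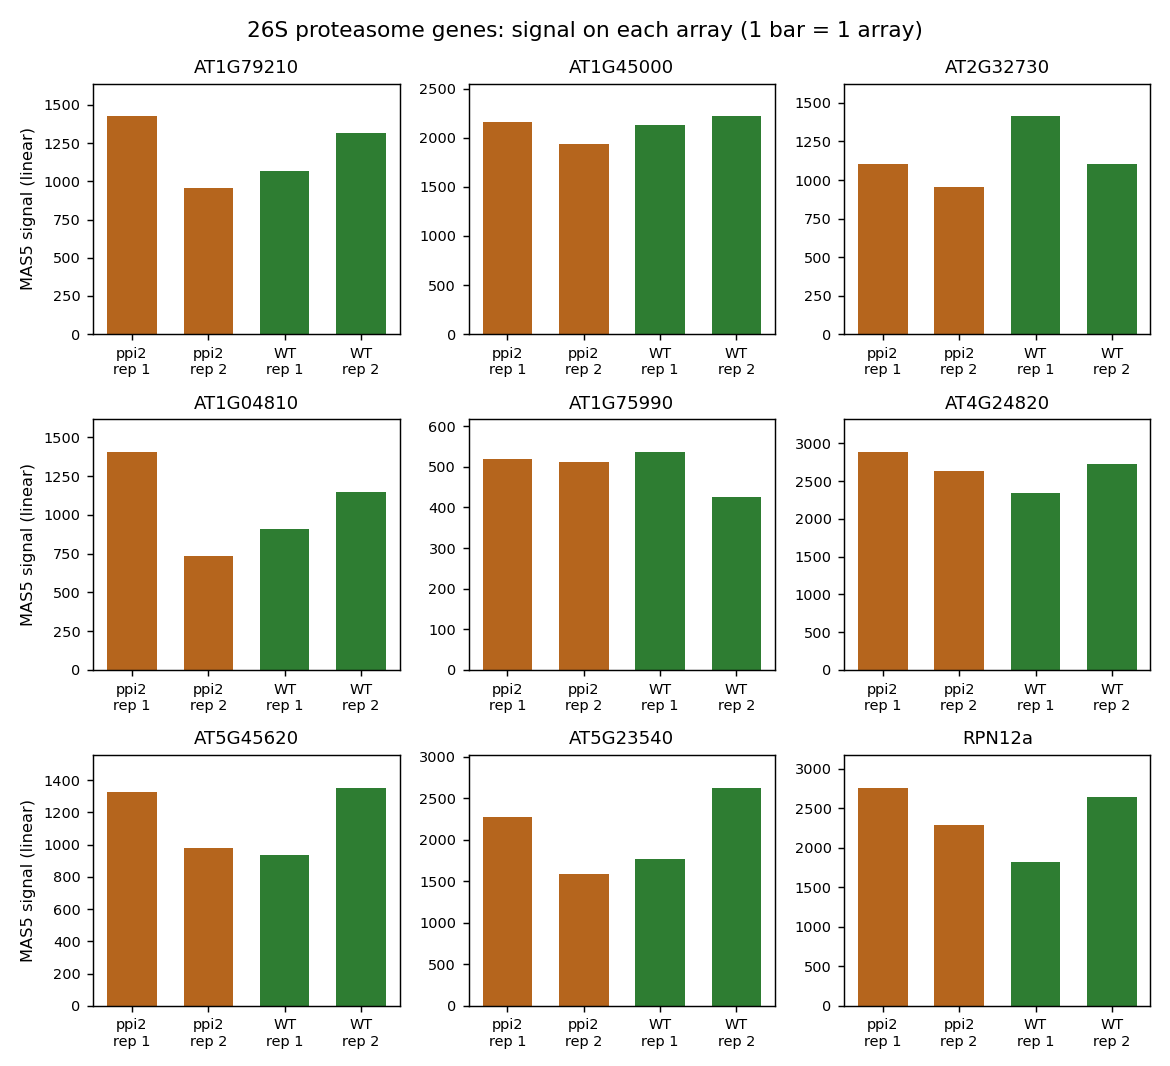
Signal of each of the 9 proteasome genes (vertical axes, linear MAS5 signal from 0) on the 4 arrays, 1 bar per array, ppi2 in brown and wild type (WT) in green. In each panel the highest bar is under 2-fold the lowest, and ppi2 replicate 1 stands above ppi2 replicate 2.

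The core particle was represented by AT1G79210, which encodes an alpha subunit of the PAB type. Alpha subunits form the outer rings of the barrel and gate the entry to the chamber. Its signal was 1426 and 955 on ppi2 replicates 1 and 2, and 1070 and 1316 on wild type replicates 1 and 2. The highest and the lowest value both came from ppi2 plants, so the groups overlapped. The log2 difference, ppi2 minus wild type, was -0.02 with a standard error of 0.34 (limma adjusted p = 1.0).

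The ATPases of the regulatory particle were represented by AT1G45000, which encodes RPT4, one of the ring of ATPases that unfold the substrate and thread it into the core. AT1G45000 had signals of 2157 and 1939 in ppi2 and of 2126 and 2218 in wild type. It was the steadiest member, with both groups close together and ppi2 replicate 2 lowest. The labelled log2 difference was -0.09 ± 0.27 (standard error, 2 arrays a group), with a 95% interval of -0.81 to 0.63.

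A pair of closely related genes, AT2G32730 and AT1G04810, both encode RPN2, a large scaffold protein of the base on which other subunits and ubiquitin-binding factors dock. AT2G32730 read 1103 and 953 in ppi2 and 1413 and 1101 in wild type. Wild type replicate 1 stood above the other arrays, and ppi2 replicate 1 and wild type replicate 2 were nearly equal and set the overlap of the groups. Its labelled log2 difference of -0.28 ± 0.30 was the largest in size among the 9 in this fit. AT1G04810 read 1404 and 737 in ppi2 and 912 and 1148 in wild type. Here both extremes were ppi2 arrays, the widest spread of any member, while the group means were almost the same, at 1071 ± 472 in ppi2 (SD, n = 2) and 1030 ± 167 in wild type (SD, n = 2). The pair did not share an order of arrays, since AT2G32730 was highest on wild type replicate 1 and AT1G04810 on ppi2 replicate 1. Whether the patterns of these 2 genes differ was not tested.

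The lid, which removes ubiquitin chains before a substrate enters, was represented by 5 genes. AT5G23540 encodes RPN11, the metalloprotease that cuts the chain from the substrate. Its signals were 2272 and 1588 in ppi2 and 1772 and 2625 in wild type. Wild type plants gave the highest value and ppi2 plants the lowest, with ppi2 replicate 1 between both wild type arrays. The labelled log2 difference was -0.18 ± 0.37.

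RPN12a encodes a lid subunit whose mutation is known to alter cytokinin responses in Arabidopsis. Its signals were 2754 and 2291 in ppi2 and 1814 and 2634 in wild type. Wild type replicate 1 was the low array and the other arrays lay closer together. RPN12a had the largest positive labelled log2 difference among the 9, at 0.20 ± 0.33, with a 95% interval of -0.68 to 1.08.

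AT4G24820 encodes RPN7, AT1G75990 a form of RPN3 and AT5G45620 a form of RPN9, all structural subunits of the lid. AT4G24820 read 2882 and 2633 in ppi2 and 2339 and 2721 in wild type. AT5G45620 read 1326 and 977 in ppi2 and 937 and 1351 in wild type, with each group holding 1 high and 1 low array. AT1G75990 gave 520 and 513 in ppi2, the closest pair of replicates among the members, and 536 and 426 in wild type. That gene was lowest on wild type replicate 2, the array on which AT1G45000, AT5G45620 and AT5G23540 were highest. The labelled log2 differences of these 3 lid genes were 0.13 ± 0.28 for AT4G24820, 0.11 ± 0.27 for AT1G75990 and 0.02 ± 0.35 for AT5G45620 (standard errors).

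Between the labelled groups, 0 of the 9 genes passed the threshold of 0.05 on the adjusted p, against a background of 0.0% of all 13604 tested probe sets (limma, Benjamini-Hochberg over all of them). At an unadjusted p under 0.05 there were 0 members, and 8 probe sets in all (0.0588%). With no difference between groups, a fraction near 0.05 of the 13604 probe sets would be expected, far more than these 8. Small p-values were thus scarcer than in a calibrated test. The spread within the labelled groups, which sets these p-values, was wide. Over all tested probe sets the median absolute log2 difference was 0.44 and 0.49 within the groups, against 0.16 and 0.26 in the crossed pairs. Unadjusted p-values of the members ran from 0.389 for AT2G32730 to 0.987 for AT1G04810, and every adjusted p was 1.0. The median labelled log2 difference of the 9 was -0.01, as it was over all tested probe sets (-0.01). In none of the 9 did the 2 ppi2 arrays lie wholly above or wholly below the 2 wild type arrays. Such a separation was seen in 14.3% of all tested probe sets, and with so few members 0 of 9 is near that share.

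**Figure D2:**
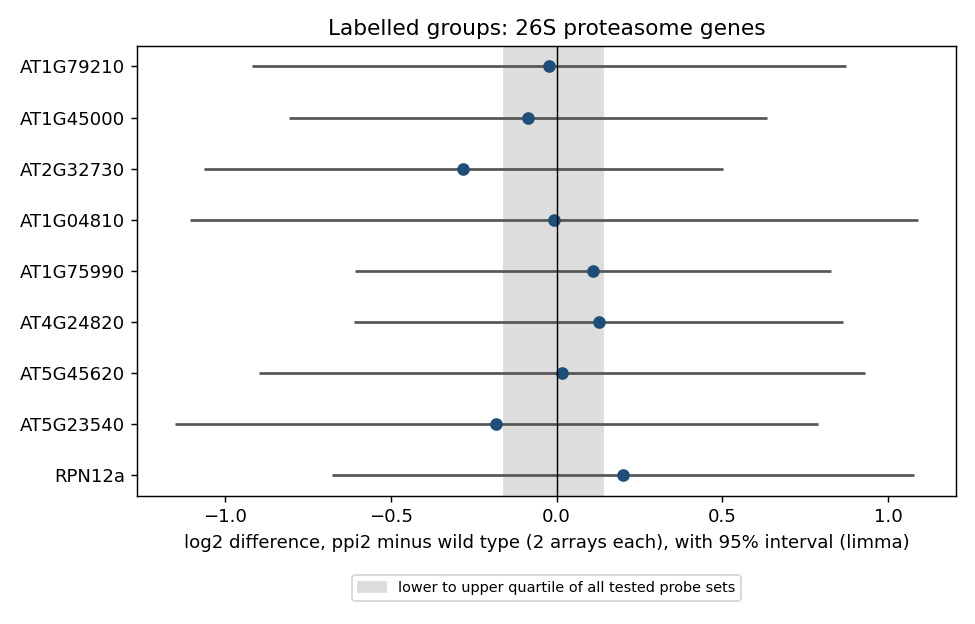
Log2 difference between the labelled groups (horizontal axis, ppi2 minus wild type, 2 arrays each) for the 9 proteasome genes, with 95% intervals from limma as lines; the grey band runs from the lower to the upper quartile of all tested probe sets. Estimates lie between -0.28 and 0.20, and each interval includes 0.

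The fit could not have shown moderate changes of these genes. The 95% intervals reached from 0.72 to 1.10 on the log2 scale to either side of the estimate (median 0.88), so a 1.5-fold difference either way lay within the interval of each gene except AT2G32730, where the upper bound was 0.50. The result does not show that proteasome transcripts were equal in ppi2 and wild type plants. With 2 arrays a group, leaving out 1 array turned the sign of 6 members in at least 1 fit. The median of the 9 was -0.20 when ppi2 replicate 1 was dropped and 0.19 when ppi2 replicate 2 was. It was -0.12 when the first wild type array was dropped and 0.12 when the second was. For AT1G04810 the difference ranged from -0.47 to 0.45 over these 4 fits, and for AT1G79210 from -0.31 to 0.26. It was negative in all 4 for AT2G32730 (-0.46 to -0.10) and AT1G45000 (-0.16 to -0.01) and positive in all 4 for AT4G24820 (0.02 to 0.24).

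Taken within a replicate number, most proteasome genes were somewhat higher in ppi2 in number 1 and somewhat lower in number 2. In number 1, 7 of 9 were higher on the ppi2 array (50.9% of all tested probe sets), with a median log2 difference of 0.36 against 0.02 over all tested probe sets. In number 2, 8 of 9 were lower on the ppi2 array (53.5% of all), with a median of -0.21 against -0.05. The genes that were higher and then lower numbered 7, against 41.1% of all tested probe sets. The reverse order was seen in 1 gene (36.8% of all), and no gene was higher in both numbers (9.77% of all). Each of these differences compares 1 array with 1 other, so it carries no error and was not tested. Because the arrays lay closest in crossed pairs, the 2 numbers gave largely the same contrast with opposite sign. The counts within the numbers and those within the labelled groups are therefore not separate observations. Median centring of the arrays moved the median of all tested probe sets in number 1 from 0.02 to 0.15 and that of the members to 0.49.

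The size of these differences was small. At 2-fold in either direction, 0 of 9 members passed in number 1, where 21.0% of all tested probe sets did, and 0 of 9 passed in number 2, where 18.3% did. At 1.5-fold, 2 of 9 were higher in number 1 (21.1% of all), namely AT1G04810, at 1.54 times the wild type signal, and RPN12a, at 1.52 times. In number 2 there were 2 of 9 at least 1.5-fold lower (19.9% of all). These were AT5G23540, at a ratio of 0.605, and AT1G04810, at 0.642. AT1G04810, of the RPN2 pair, was thus past 1.5-fold in both numbers and in opposite directions.

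The genes outside this order were AT2G32730 and AT1G75990. AT2G32730, the other RPN2 gene, was lower in ppi2 in both numbers, with log2 differences of -0.36 and -0.21, a combination seen in 12.3% of all tested probe sets. AT1G75990, the RPN3 gene, was lower in number 1 by a small amount (-0.04) and higher in number 2 (0.26). Its sign in number 1 turned to 0.09 with median centring. AT1G45000 differed least in number 1 (0.02), and its sign there turned to -0.01 with quantile normalization. No other member changed sign within a number under the alternative scalings and pseudocounts that were run. The alternative filters could not change a member's sign.

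**Figure D3:**
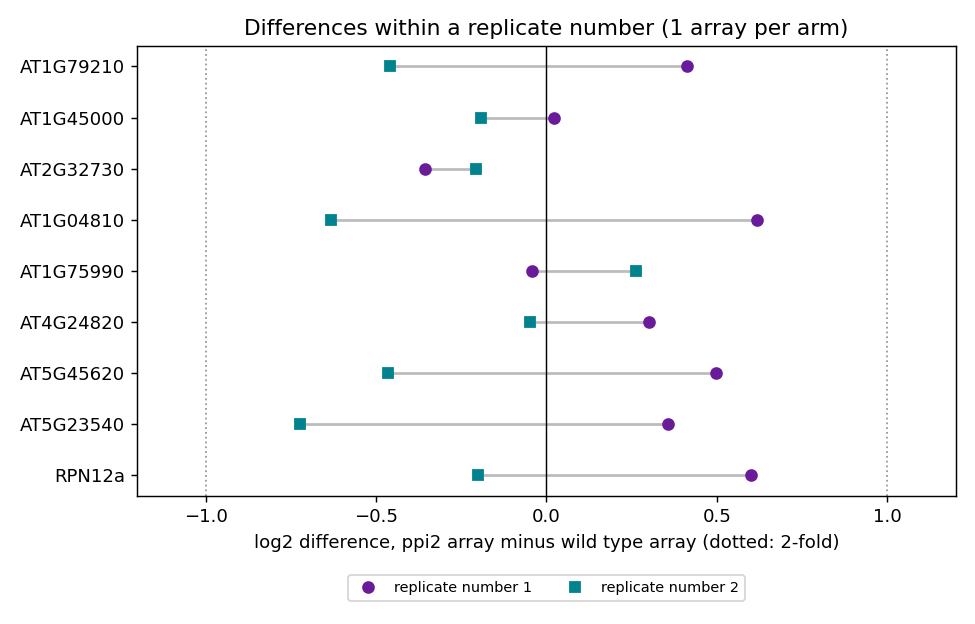
Log2 difference between the ppi2 array and the wild type array (horizontal axis) within replicate number 1 (circles) and number 2 (squares) for each of the 9 proteasome genes, with dotted lines at 2-fold. In 7 genes the circle lies above 0 and the square below it, AT2G32730 has both below 0, AT1G75990 has the reverse order, and no point passes a dotted line.

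Compared over pairs of arrays, the proteasome genes were closest in the same 2 crossed pairs as all tested probe sets. Their median absolute log2 difference was smallest between ppi2 replicate 1 and wild type replicate 2 (0.08) and next between ppi2 replicate 2 and wild type replicate 1 (0.16). It was 0.26 between both ppi2 arrays, 0.33 between both wild type arrays, 0.36 within number 1 and 0.26 within number 2. In each of the 6 pairs this was below the median over all tested probe sets, which ran from 0.16 to 0.49, again without regard to signal level. By array, 5 members were lowest on ppi2 replicate 2 (27.3% of all tested probe sets were lowest there), 3 on wild type replicate 1 and 1 on wild type replicate 2. The highest signal was on ppi2 replicate 1 for 4 members, on wild type replicate 2 for 3 and on wild type replicate 1 for 2. Except for ppi2 replicate 2 as the lowest array, the matching shares of all tested probe sets were not worked out. These counts therefore only describe the members. Most members were higher on ppi2 replicate 1 and wild type replicate 2 than on the other array of the same group. Of all tested probe sets, 52.8% and 51.1% were. These arrays also had the lower summed signal of leaf markers, and whether this is linked to the members' values was not tested.

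**Figure D4:**
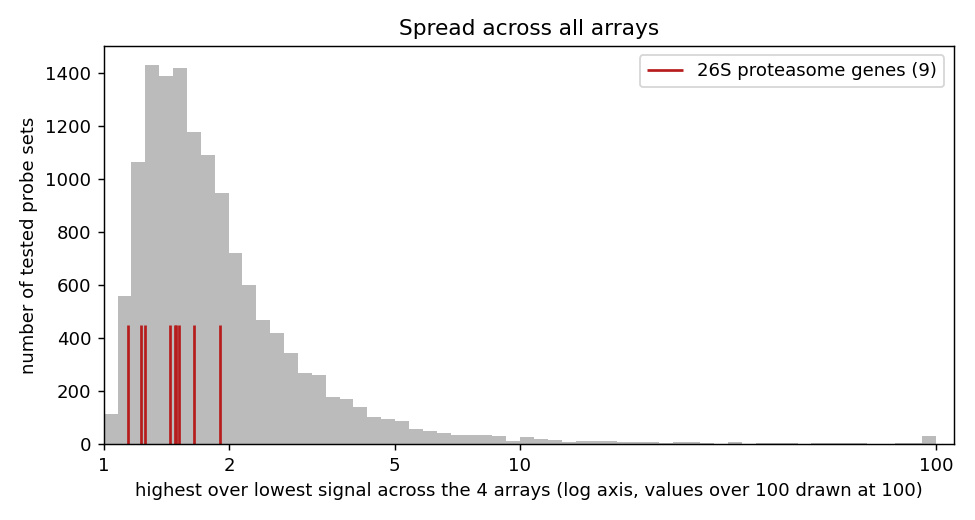
Number of tested probe sets (vertical axis) by the ratio of the highest to the lowest signal over the 4 arrays (horizontal log axis), with the 9 proteasome genes as red lines. The red lines lie between 1.14 and 1.90. Only that of AT1G04810 lies above the median of 1.67 over all tested probe sets.

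Genes that act before or beside the proteasome did not all follow its order of arrays. Of 66 other loci listed for the ubiquitin and proteasome pathway, 6 had a single-gene probe set, and 0 of these 6 passed the threshold in either direction. AT1G67250, for a maturation factor of the core particle (UMP1 in yeast), read 2485 and 2173 in ppi2 and 2162 and 2602 in wild type, so it was slightly higher and then lower, with log2 differences of 0.20 and -0.26. AT3G53970, for a regulator of proteasome activity, gave 470 and 369 in ppi2 and 398 and 482 in wild type, again in that order. AT2G47970, related to the CDC48 cofactor NPL4, read 1060 and 868 in ppi2 and 814 and 896 in wild type.

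The remaining 3 of these genes ran the opposite way or nearly level. CUL4, the scaffold of a family of ubiquitin ligases active in light signalling, read 2387 and 2217 in ppi2 and 2789 and 2205 in wild type. CSN5B, a subunit of the COP9 signalosome that is related to RPN11 and regulates cullins, was dim, at 134 and 135 in ppi2 and 156 and 83.6 in wild type. UBC28, a ubiquitin-conjugating enzyme, read 4563 and 10569 in ppi2 and 11656 and 4242 in wild type. Its log2 differences were -1.35 in number 1 and 1.32 in number 2, in the reverse order to most proteasome genes and larger than any of theirs. Its labelled difference was -0.02 ± 0.68 (standard error).

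A wider list, added after the data were seen, took all 25 tested genes whose symbol or synonym in the gene table holds the word ubiquitin, and again 0 of 25 passed the threshold (limma). Among 11 ubiquitin-conjugating enzymes, which pass ubiquitin to substrates or ligases, 4 were higher then lower, 6 lower then higher and 1 lower in both, with medians of -0.28 and 0.11. Among 11 ubiquitin-specific proteases, which trim ubiquitin chains, 7 were higher then lower, 3 lower then higher and 1 higher in both, with medians of 0.11 and -0.35. Over all tested probe sets, 41.1% were higher then lower, 36.8% lower then higher, 12.3% lower in both and 9.77% higher in both. Whether these classes differ from those shares, from each other or from the proteasome genes was not tested. The highest signal was under 2-fold above the lowest in 17 of the 25, a share near the 67.8% of all tested probe sets.

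Several of the 25 genes had wide differences in opposite directions. UBP23, a ubiquitin-specific protease, read 1224 and 715 in ppi2 and 417 and 1205 in wild type, a ratio of 2.93 in number 1. UBC18 read 281 and 619 in ppi2 and 645 and 318 in wild type, in the order of UBC28. The ligase gene LUL1 read 888 and 376 in ppi2 and 327 and 811 in wild type, and the related LUL4 ran the other way, at 119 and 254 against 324 and 126. LUL2 was the only one of the 25 whose labelled groups did not overlap (14.3% of all tested probe sets), at 185 and 198 in ppi2 and 305 and 299 in wild type. Its log2 difference was -0.64 ± 0.29 (standard error, limma unadjusted p = 0.0871, adjusted p = 1.0).

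**Figure D5:**
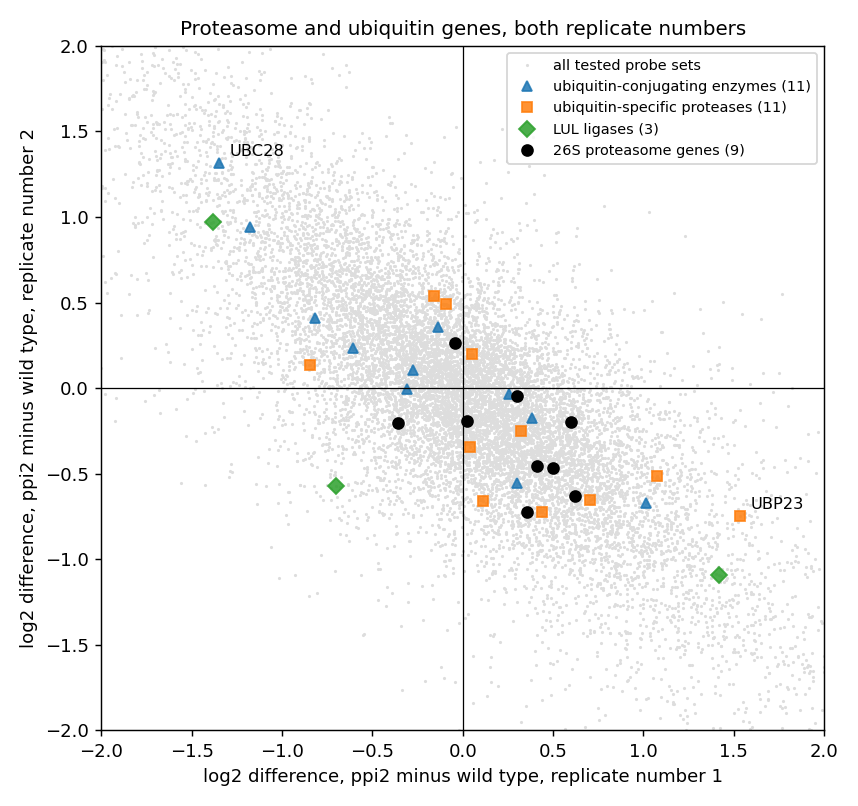
Log2 difference between ppi2 and wild type within replicate number 1 (horizontal axis) and number 2 (vertical axis) for the 9 proteasome genes (black), 25 genes named for ubiquitin (coloured by class) and all tested probe sets (grey dots). The axes end at 2 either way, which leaves out 762 probe sets; proteasome genes lie near the centre, mostly at the lower right, while UBC28 lies at the upper left and UBP23 at the lower right.

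The genes whose pattern over the 4 arrays came closest to the mean proteasome pattern were ranked by the Euclidean distance of log2 values centred on each gene's mean. The 5 nearest were AT1G09460, AT5G38830, AT4G39550, AT3G04480 and PGY1, at distances from 0.027 to 0.038. PGY1, which encodes a protein of the large cytosolic ribosomal subunit, read 5858 and 4725 in ppi2 and 4920 and 5630 in wild type. The proteasome genes themselves lay farther from their own mean, from 0.17 for AT1G79210 to 0.49 for AT2G32730. With only 4 arrays, close matches among so many genes are easily found.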

How the data were processed

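RNA of 4 samples was measured on single-colour Affymetrix arrays. The authors deposited 1 linear intensity per probe set and array, computed with MAS5 per the submitters' processing notes. The version of MAS5 is not given in the sources used here, and no detection calls were used. The 2% trimmed mean was 500.04 on every array, so no further scaling was applied. Precision is limited by having only 4 arrays and by the wide spread within the labelled groups.

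Of 22810 probe sets, 64 controls were left out. A platform table gave 13513 probe sets 1 gene and 503 several, and left the others unnamed here. By gene identifier, 13436 matched a RefSeq table of TAIR10.1, used only for names. For each gene the probe set with the highest mean signal was kept (157 others removed), and a filter at the 40th percentile of mean signal (124) removed 8985 more, leaving 13604. Differences are on the scale of log2(signal + 7.99), with the pseudocount at the 10th percentile of the signals, and are understated for dim probe sets.

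Groups and replicate numbers came from the sample titles. The test of ppi2 against wild type was limma 3.58.1 (R 4.3.3), two-sided, with group as its single term, a trended eBayes prior and 2 residual and 2.59 prior degrees of freedom, and p-values were adjusted over all tested probe sets. An exact permutation test of 2 against 2 arrays cannot reach the threshold and was not used. The steps were tested on simulated data with independent noise on each array. That setting lacks the crossed closeness of the real arrays, so it does not show how the test behaves here. Genes were named by rule: the members, up to 3 of each pathway list by mean signal, the 5 nearest in pattern, and leaf and root markers. The genes named for ubiquitin were listed after the data were seen, and those described singly were chosen after their values were seen. The members and lists were chosen with earlier results of these data known. Alternatives covered scaling, pseudocount, filter, variance model, probe set choice, the replicate number as a block and leaving out each array. Figures were drawn with matplotlib 3.10.9.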

Additional observations from a re-analysis of the deposited data

How the results depend on the processing

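The count of tested probe sets past the threshold and that of proteasome genes were 0 under every alternative run, also with a replicate block (0 calls) and, added after the data were seen, with crossed replicate numbers as the block (0 calls). The numbers did not pair the arrays, with a correlation of same-numbered deviations of -0.818. Of 90 labelled differences of single proteasome genes under other settings that kept all arrays, 2 had the other sign, both with median centring: AT1G04810 (0.0505, limma adjusted p = 1.0) and AT1G79210 (0.0344, limma adjusted p = 1.0). Of 36 with 1 array left out, 10 had the other sign and 0 passed. The ranges there were -0.31 to 0.26 for AT1G79210, -0.47 to 0.45 for AT1G04810, -0.46 to 0.10 for AT5G23540, -0.25 to 0.28 for AT5G45620, -0.068 to 0.468 for RPN12a and -0.0538 to 0.271 for AT1G75990. A lone array is then assumed to vary like the other group. The median labelled difference ranged from -0.20 to 0.19 with 1 array left out, and was 0.05 with median centring. Within a replicate number, 2 of 126 values of single genes had the other sign. Many of the 90 and of the 126 values were fixed in advance and could not change sign. Averaging all probe sets of a gene could not alter the members, which have 1 each, and neither could the filters. The variance model and the blocks could not alter the labelled differences. With all arrays kept, only the scaling and the pseudocount could turn a sign. No detection calls were used, which limits what dim probe sets show.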
